A study of Homo sapiens with 12 samples.

Results

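Integrin and laminin genes were taken from the count table of 2 human lung cancer cell lines, PC9 and H1650, by symbol: every integrin alpha or beta subunit gene and every laminin alpha, beta or gamma chain gene. The rule matched 38 of 60591 genes, of which 26 encode integrin subunits (18 alpha and 8 beta) and 12 encode laminin chains. PC9 and H1650 are non-small cell lung cancer lines that carry an activating deletion in EGFR, the receptor kinase that both drugs inhibit, and the genotype field of the labels reads "Wild-type" for every library, so no gene was edited. RNA was sequenced at T0 (0.1% DMSO, 0 h) and after 36 h in 10 μM erlotinib, a first-generation EGFR inhibitor, or 36 h in 0.1 μM osimertinib, a third-generation one. Each of the 6 groups has 2 libraries, 12 in all. The treated cells had also been in culture 36 h longer than the T0 cells, and a vehicle library at 36 h was not analysed here, so drug and time in culture cannot be told apart. The doses of the drugs differ, and each line stands for itself alone.

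Laminins are cross-shaped trimers of an alpha, a beta and a gamma chain that are secreted into the basement membrane, the sheet of matrix under an epithelium. Integrins are membrane receptors made of an alpha and a beta subunit, and the pair decides which matrix protein is bound: alpha-6 with beta-4 or beta-1 and alpha-3 with beta-1 bind laminin, alpha-1 and alpha-2 bind collagen, and alpha-v and alpha-5 bind matrix proteins that carry the Arg-Gly-Asp (RGD) sequence. LAMA3 and LAMB3 encode chains of laminin-332, the laminin of epithelial anchoring structures called hemidesmosomes, while LAMA5 joins LAMB1 or LAMB2 and LAMC1 in the laminins of mature basement membranes, including that of the lung.

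In PC9 cells after 36 h in either drug, transcripts of LAMA3, LAMB3 and the integrin alpha subunits ITGA6, ITGA3, ITGA2 and ITGA1 were lower than at T0. ITGA6 was 34.3-fold below T0 in erlotinib and 45.5-fold below T0 in osimertinib. The chains of the LAMA5 laminins moved the other way or stayed near T0. In H1650 cells, LAMA3 and LAMB3 also fell, by less, while ITGA6, ITGA3 and ITGA2 stayed within 1.5-fold of T0. ITGA4, which encodes the alpha subunit that binds fibronectin and the adhesion molecule VCAM-1, rose in PC9 cells and fell in H1650 cells with both drugs.

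Library totals ran from 17961765 to 26346187 counts, and no library stood apart from its replicate. Values are given as normalized CPM, read counts scaled to a common library size by the trimmed mean of M-values (TMM), and a gene was called where edgeR's quasi-likelihood test gave a Benjamini-Hochberg adjusted p under 0.05 over the 19108 genes tested. All adjusted p-values here come from that test unless another tool is named. Of the 38 genes, 35 passed the filter on low counts, and ITGA8, ITGAL and LAMB4 did not. A mean of at least 10 CPM in at least 1 group was reached by 23 genes, of which 22 are described by library, and the other 15 are described together. A count of 3 reads corresponded to between 0.116 and 0.168 CPM. The epithelial markers EPCAM, KRT8, KRT18, KRT19 and CDH1 summed to between 5166 and 9156 CPM per library. The 5 leukocyte markers summed to at most 3.96 CPM, with LCP2 at 0 reads throughout. The 5 fibroblast markers summed to between 10.1 and 45.9 CPM, highest in PC9 with osimertinib, where COL1A1 averaged 40.7. The 3 endothelial markers summed to between 0.193 and 5.55 CPM, also highest there, and the 3 platelet markers to at most 0.0561. In these bulk libraries, fewer cells of a kind and less RNA per cell cannot be told apart.

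The genes lie on many chromosomes. In GENCODE 29 (build GRCh38), LAMA3 covers chr18:23689443-23956222 on the plus strand, LAMB3 chr1:209614870-209652466 on the minus strand, and ITGA6 chr2:172427354-172506282 on the plus strand. LAMC1 covers chr1:183023460-183145592 on the plus strand. Exons of 22 of the 38 genes overlap an exon of another gene, for 18 of them on the opposite strand, and since the strand setting of the counting is not given in the sources used here, their counts may hold reads of the neighbour. Among the genes described below, ITGB6 shares 966 exonic bases with AC092153.1, ITGAE 427 with HASPIN, ITGA1 475 with PELO, and ITGB2 303 with its antisense gene. LAMA5 shares 244 with ADRM1, LAMB1 221 with AC005046.1, and ITGA6 174 with AC078883.2. Further overlaps of the described genes are not listed.

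RefSeq promoter windows (250 bases before to 50 after a transcription start, GRCh38.p14) were at hand for 26 of the 38 genes, in 33 windows. The AP-1 motif TGANTCA, the letters bound by FOS and JUN factors, is its own reverse complement and lay in 3 of the 33 windows, those of LAMA3, LAMB3 and ITGA5, beside 7.71% of all 35116 windows. The stretches around the matches are shown, since the results below turn on these genes, each 30 bases long, 5′ to 3′ on the strand of the gene, with the motif in capitals. In LAMA3 the matches begin 125 and 69 bases before a start, and in LAMB3 the match begins 67 bases before a start. In ITGA5 it begins 6 bases before a start and runs across it. Each of these starts lies inside the gene as GENCODE 29 draws it.
LAMA3 chr18:23872884-23872913, plus strand: ctggcacaggcTGACTCAtgtgtgaagttt
LAMA3 chr18:23872940-23872969, plus strand: ccttcctcaccTGAGTCAggcaggcccggg
LAMB3 chr1:209651423-209651452, minus strand: gtcagccactcTGACTCAttcactttgggc
ITGA5 chr12:54419254-54419283, minus strand: cctccccgcgtTGAGTCAttcgcctctggg

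The TEAD motif GGAATG was in 4 of the 33 windows (14% of all windows) and the FOXO motif GTAAACA in none (3.42% of all windows). The SP1 motif GGGCGG was in 19 of the 33 windows, those of 14 genes (45.0% of all windows). Each motif was searched on both strands. A match is only a match of letters, and its absence says only that the letters are not in the window. The 250 bases upstream of the first ITGA6 start are shown because this gene changed most. They are 50.8% G or C and hold none of the 4 motifs. The SP1 motif lies 33 bases after this start, and at 217, 106 and 55 bases before the second ITGA6 start, whose window is 72% G or C.
ITGA6 chr2:172427086-172427335, plus strand: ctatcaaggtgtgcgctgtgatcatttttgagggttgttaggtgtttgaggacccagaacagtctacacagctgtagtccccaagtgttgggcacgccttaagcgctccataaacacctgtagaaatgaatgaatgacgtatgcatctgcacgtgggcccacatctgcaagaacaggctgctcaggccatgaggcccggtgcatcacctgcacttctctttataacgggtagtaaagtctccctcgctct

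At T0, both lines made the parts of several laminins and laminin receptors, in different proportions. Levels were compared as CPM per kb of the gene length in the count file. The lengths of the transcripts that were made are not known and may be shorter. PC9 cells held ITGA6 at 180.3, ITGB1 at 160.2, LAMB3 at 94.7 and ITGB4 at 79.4 CPM per kb. In H1650 cells the order was ITGB1 at 284 CPM per kb, ITGA6 at 165, LAMA5 at 108 and ITGA3 at 101. H1650 against PC9 at T0, 18 genes were higher and 12 lower of the 35 tested, or 85.7%, where the test called 69.6% of all genes, 35.8% higher and 33.8% lower. The libraries of the lines did not overlap for 84% of all genes. LAMA3 was 2.94-fold lower in H1650 (log2 fold change -1.56, SE 0.0736, adjusted p = 8.36e-17) and LAMB3 2.33-fold lower (-1.22, SE 0.0775, adjusted p = 6.2e-14). The 4 chains of the LAMA5 laminins were higher in H1650, from 1.13-fold for LAMC1 to 2.72-fold for LAMB2. For LAMC1 the call was lost without PC9 T0 replicate 1 or either H1650 T0 library (adjusted p between 0.0591 and 0.176). The widest gap among the described genes was that of ITGA4, at 0.857 and 0.592 CPM in the PC9 T0 libraries and 271 and 283 in those of H1650, a 379.8-fold difference. ITGA1 was 15.7-fold, ITGB8 12.9-fold and ITGAV 6.03-fold higher in H1650, and LAMA4 was 16.6-fold and ITGA2 6.56-fold lower. ITGA6, at 1168 and 1251 CPM in PC9 and 1103 and 1117 in H1650, differed by 1.09-fold (adjusted p = 0.112, and 0.0456 with the replicate number as a block).

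**Figure D1:**
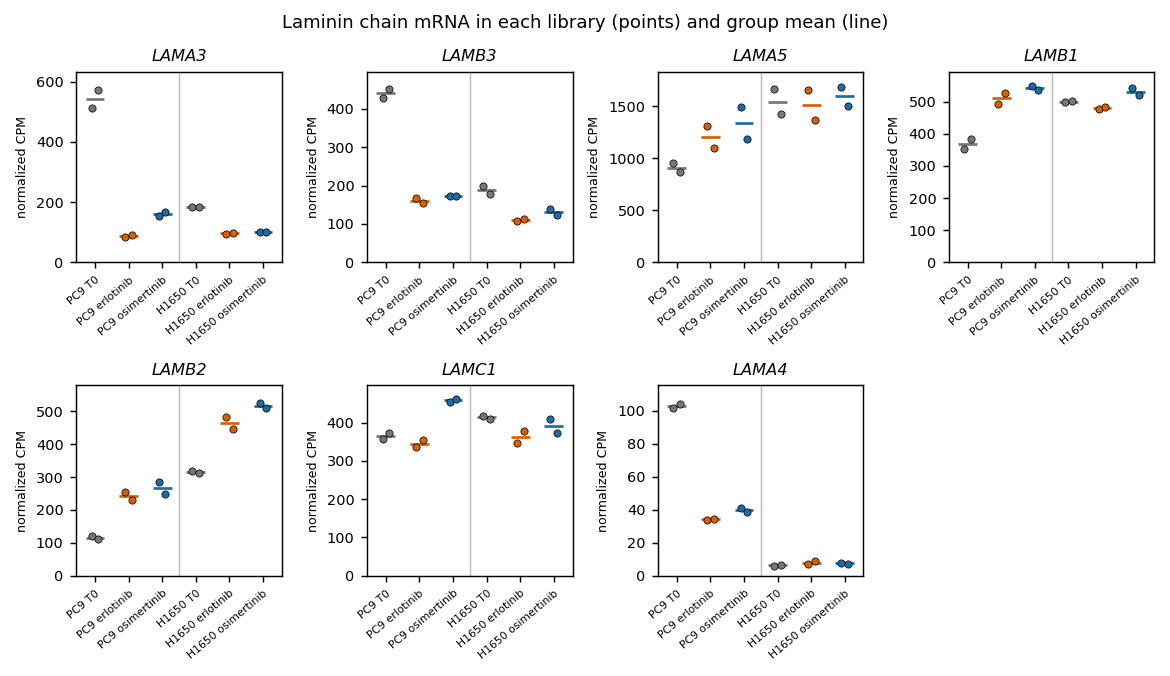
Normalized CPM (vertical axis, from 0) of 7 laminin chain mRNAs in each of the 12 libraries, grouped by line and treatment. Points are libraries and horizontal lines group means. LAMA3 and LAMB3 are lower in every treated library than in either T0 library of the same line, and LAMB2 is higher.

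LAMA3 and LAMB3 fell in both lines with both drugs. LAMA3, the alpha chain of laminin-332, stood at 513 and 571 CPM in PC9 at T0, 84.2 and 91.6 after erlotinib, and 154 and 165 after osimertinib. In H1650 it stood at 185 and 184 CPM at T0, 94.1 and 97.4 after erlotinib, and 101 and 100.2 after osimertinib. The treated LAMA3 libraries lay below the T0 libraries in both lines with no overlap, as treated and T0 libraries did, in either direction, for 78.7% of all genes with erlotinib and 78.8% with osimertinib in PC9, and for 65.6% and 64.9% in H1650. The PC9 log2 fold changes were -2.62 with erlotinib (SE 0.0771, adjusted p = 3.04e-21) and -1.76 with osimertinib (SE 0.0745, adjusted p = 8.24e-18). Those of H1650 were -0.94 (adjusted p = 7.87e-11) and -0.87 (adjusted p = 3.54e-10). After erlotinib, the LAMA3 libraries of the lines thus lay within 84.2 and 97.4 CPM, from starting levels that had differed 2.94-fold. LAMB3, the beta chain, stood at 429.7 and 451 CPM in PC9 at T0, 167 and 154 after erlotinib, and 172 in both osimertinib libraries. In H1650 it stood at 200.04 and 178 CPM at T0, 107 and 112 after erlotinib, and 139.9 and 122 after osimertinib. LAMB3 fell 2.75-fold and 2.56-fold in PC9 and 1.73-fold and 1.44-fold in H1650, with erlotinib and osimertinib in that order. The largest of the adjusted p-values was 4.26e-06.

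The chains of the LAMA5 laminins took another course. LAMB2, a beta chain of mature basement membranes, was the only member called higher in all 4 comparisons of a drug with T0. It stood at 120.3 and 111 CPM in PC9 at T0, 254 and 231 after erlotinib, and 285 and 249.5 after osimertinib. In H1650, LAMB2 stood at 317 and 313 CPM at T0, 484 and 445 after erlotinib, and 525 and 509 after osimertinib. In PC9 the rise was 2.09-fold with erlotinib (adjusted p = 1.66e-12) and 2.31-fold with osimertinib (adjusted p = 1.16e-13). In H1650 it was 1.47-fold (adjusted p = 9.37e-07) and 1.64-fold (adjusted p = 1.64e-08).

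LAMA5 itself stood at 953 and 871 CPM in PC9 at T0, 1314 and 1101 after erlotinib, and 1494 and 1186 after osimertinib, with replicate 1 the higher in each group. It rose 1.32-fold with erlotinib (adjusted p = 0.00117, and 0.0519 by DESeq2) and 1.47-fold with osimertinib (adjusted p = 3.04e-05). In H1650 the LAMA5 libraries ranged from 1428 to 1667 CPM at T0 and from 1365 to 1687 in treated cells, and the groups overlapped, with log2 differences of -0.03 and 0.05. LAMB1, the other beta chain, rose 1.39-fold and 1.47-fold in PC9, from 353 and 384 CPM at T0 to 493 and 528 in erlotinib and 549 and 535 in osimertinib, and differed from T0 in H1650 by -0.06 and 0.09 on the log2 scale, which did not pass the test. LAMC1, the gamma chain, stood at 357 and 374 CPM in PC9 at T0 and rose 1.26-fold with osimertinib, to 455 and 463 (adjusted p = 0.000188). With erlotinib it stood at 336 and 354 (adjusted p = 0.32). In H1650, LAMC1 fell 1.15-fold with erlotinib, from 419 and 411 CPM to 346 and 377 (adjusted p = 0.0292), a call that was lost without either T0 library or erlotinib replicate 1 (adjusted p between 0.0777 and 0.295).

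LAMA4, an alpha chain of blood vessel and muscle basement membranes, was at 102 and 104 CPM in PC9 at T0 and fell 3.02-fold with erlotinib, to 33.9 and 34.2, and 2.58-fold with osimertinib, to 41.1 and 38.3. In H1650, LAMA4 stood at 6.11 and 6.25 CPM at T0, and 7.02 and 8.85 after erlotinib, a 1.29-fold rise (adjusted p = 0.0335) that was lost without either T0 library or erlotinib replicate 2 (adjusted p between 0.106 and 0.478).

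**Figure D2:**
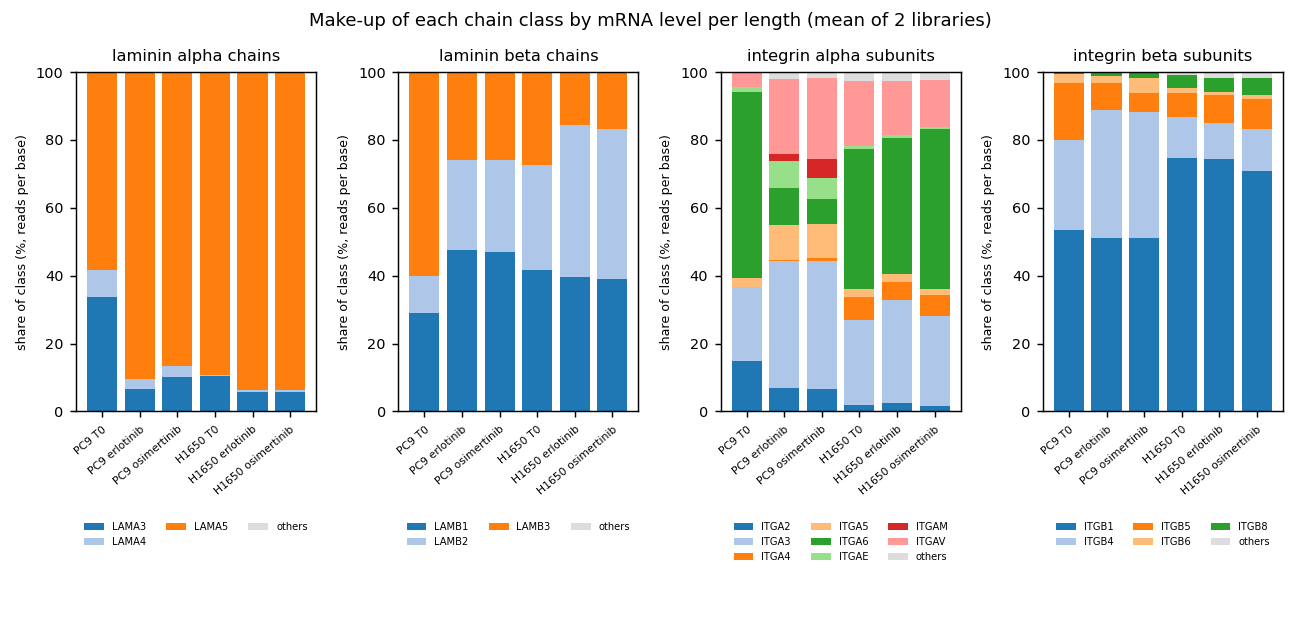
Share of 4 chain classes (vertical axis, percent of reads per base summed over the class) held by each gene, as the mean of 2 libraries, in the 6 groups. In PC9 cells LAMA3 goes from 33.8% of the laminin alpha chains at T0 to 6.47% in erlotinib and 10.2% in osimertinib, and ITGA6 from 54.9% of the alpha subunits to 10.8% and 7.30%.

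The make-up of the chain classes, as shares of reads per base, changed accordingly. In PC9, LAMA3 held 33.8% ± 2.92 (SD, n = 2) of the laminin alpha chains at T0, 6.47% ± 1.09 in erlotinib and 10.2% ± 1.90 in osimertinib, while LAMA5 went from 58.3% to 90.4% and 86.6%. Among the beta chains in PC9, LAMB3 went from 60.2% ± 0.0930 at T0 to 25.9% ± 1.24 and 25.8% ± 0.911. LAMB2 went from 10.7% to 26.5% and 27.2% there. In H1650 at T0, LAMA5 held 88.8% and LAMB3 27.4% of their classes, nearer to treated PC9 than to PC9 at T0. The shares were not tested, and shares of RNA do not give the trimers made. They rest on the gene lengths of the count file, not on the lengths of the transcripts made.

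**Figure D3:**
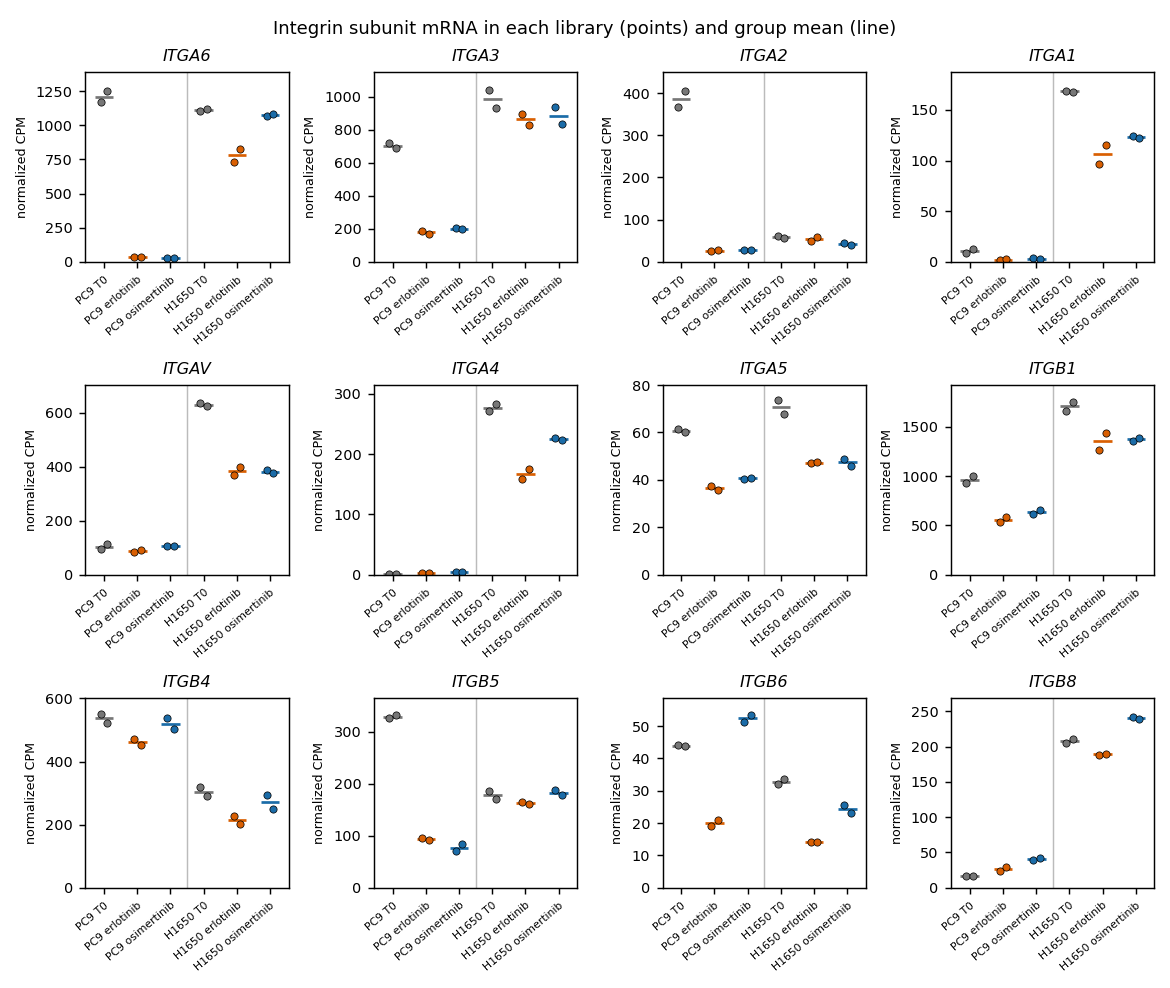
Normalized CPM (vertical axis, from 0) of 12 integrin subunit mRNAs in each of the 12 libraries, grouped by line and treatment. Points are libraries and horizontal lines group means. ITGA6, ITGA3, ITGA2 and ITGB5 are far lower in the treated PC9 libraries than at T0, whereas their H1650 values stay within 1.5-fold of T0.

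Among the laminin-binding subunits ITGA6, ITGA3, ITGA7 and ITGB4, 3 fell with erlotinib in PC9 and 2 with osimertinib. In H1650, 3 fell with erlotinib and 0 passed the test with osimertinib. With the replicate number as a block, ITGA3 and ITGB4 also passed in H1650 with osimertinib (adjusted p = 0.0191 and 0.0223). Of all genes, 29.1% and 28.7% were called lower in PC9 with erlotinib and osimertinib, and 18.5% and 17.9% in H1650. ITGA7, at 1.47 CPM in PC9 at T0 and 2.19 in erlotinib, did not pass the test in any of these comparisons. ITGA6, which pairs with ITGB4 in hemidesmosomes, stood at 1168 and 1251 CPM in PC9 at T0, 35.3 in both erlotinib libraries, and 26.7 and 26.4 in osimertinib. The log2 fold changes were -5.10 (SE 0.0846, adjusted p = 4.61e-26) and -5.51 (SE 0.0876, adjusted p = 1.48e-26). In H1650, ITGA6 stood at 1103 and 1117 CPM at T0, 732 and 829 in erlotinib, and 1069.6 and 1084 in osimertinib. There it fell 1.42-fold with erlotinib (adjusted p = 1.17e-06) and differed 1.03-fold with osimertinib (adjusted p = 0.678).

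ITGA3, the other common laminin-binding alpha subunit, stood at 718 and 688 CPM in PC9 at T0 and fell 3.95-fold with erlotinib, to 185 and 170.5, and 3.50-fold with osimertinib, to 204 and 198 (adjusted p = 2.08e-18 and 1.35e-17). In H1650, ITGA3 stood at 1041 and 931 CPM at T0, 894 and 832 in erlotinib, and 938 and 833 in osimertinib, where the T0 and osimertinib libraries overlapped. The 1.14-fold fall with erlotinib (adjusted p = 0.0436) was lost without either PC9 T0 library, H1650 T0 replicate 1 or H1650 erlotinib replicate 2 (adjusted p between 0.0544 and 0.391).

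ITGB4, the beta subunit of the hemidesmosome receptor, did not follow its partner ITGA6. It stood at 550.2 and 523 CPM in PC9 at T0, 473 and 453 in erlotinib, and 537 and 502 in osimertinib, and in H1650 at 319 and 290.0 at T0, 227 and 200.4 in erlotinib, and 295 and 251 in osimertinib. ITGB4 fell 1.43-fold with erlotinib in H1650 (log2 fold change -0.51, adjusted p = 1.12e-05). Its 1.16-fold fall with erlotinib in PC9 (adjusted p = 0.0222) was lost without T0 replicate 1 or erlotinib replicate 2 (adjusted p = 0.133 and 0.11), and with osimertinib the T0 and treated libraries overlapped in both lines. The log2 difference in PC9 was thus -5.51 for ITGA6 and -0.05 for ITGB4 in the same osimertinib libraries.

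ITGB1, the beta subunit shared by many receptors, fell in all 4 comparisons. It stood at 929 and 997 CPM in PC9 at T0, 533 and 581 in erlotinib, and 619 and 652 in osimertinib, falls of 1.73-fold and 1.52-fold. In H1650, ITGB1 stood at 1663 and 1755 CPM at T0, 1267 and 1437 in erlotinib, and 1359 and 1387 in osimertinib, falls of 1.26-fold (adjusted p = 0.000477) and 1.24-fold (adjusted p = 0.000981).

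**Figure D4:**
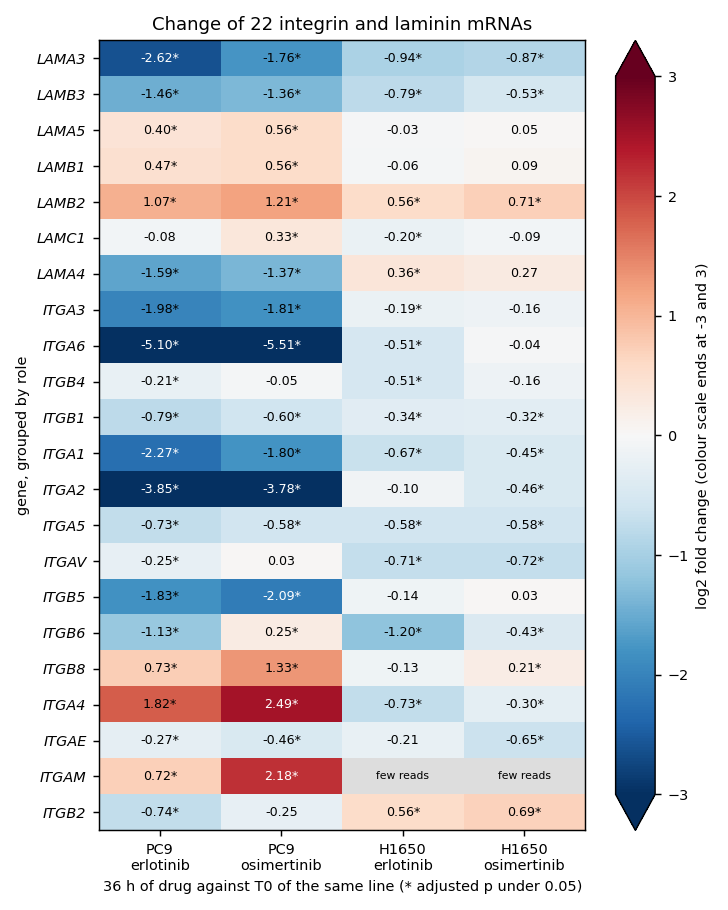
Log2 fold change of 22 integrin and laminin mRNAs (vertical axis) after 36 h of erlotinib or osimertinib against T0 of the same line (horizontal axis). Blue is lower and red higher than T0, an asterisk marks an adjusted p under 0.05, and the values of ITGAM in H1650, which had at most 4 reads per library, are left out. The PC9 columns hold the darker cells, with ITGA6 at -5.10 and -5.51.

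Of 4 collagen-binding alpha subunits tested, 2 fell with each drug in PC9, 1 with erlotinib in H1650 and 2 with osimertinib in H1650. Lower calls made up 29.1% and 28.7% of all genes in PC9 with erlotinib and osimertinib, and 18.5% and 17.9% in H1650. The low-level ITGA10 and ITGA11 did not pass the test with either drug. ITGA2 stood at 366 and 405 CPM in PC9 at T0, 24.8 and 28.5 in erlotinib, and 27.3 and 28.9 in osimertinib, falls of 14.5-fold and 13.7-fold (adjusted p = 1.44e-22 and 2.06e-22). In H1650 it stood at 60.4 and 57.3 CPM at T0, 50.4 and 59.4 in erlotinib (adjusted p = 0.429), and 44.9 and 40.8 in osimertinib, where it fell 1.37-fold (adjusted p = 0.000214). The treated PC9 libraries thus came below the H1650 libraries, although PC9 had started higher. ITGA1, another collagen-binding subunit, stood at 8.72 and 12.6 CPM in PC9 at T0, 2.11 and 2.30 in erlotinib, and 3.28 and 2.80 in osimertinib. In H1650, ITGA1 went from 169 and 168 CPM to 96.4 and 116 in erlotinib and 124 and 122 in osimertinib. It was called lower in all 4 comparisons, by 4.83-fold and 3.49-fold in PC9 and by 1.59-fold and 1.37-fold in H1650.

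The RGD-binding subunits gave a mixed picture. ITGA5, the fibronectin receptor's alpha subunit, fell by nearly the same factor in every comparison, 1.66-fold and 1.49-fold in PC9 and 1.49-fold with either drug in H1650. Its CPM values were 61.3 and 60.1 in PC9 at T0, 37.3 and 35.7 in erlotinib, and 40.6 in both osimertinib libraries, and in H1650 73.6 and 67.8 at T0, 47.0 and 47.5 in erlotinib, and 48.9 and 45.9 in osimertinib. ITGAV, the alpha-v subunit that pairs with ITGB3, ITGB5, ITGB6 or ITGB8, went from 635 and 625 CPM in H1650 at T0 to 370.0 and 399 in erlotinib and 388 and 375 in osimertinib, falls of 1.64-fold and 1.65-fold (adjusted p = 1.09e-08 and 8.61e-09). In PC9, ITGAV stood at 96.0 and 113 CPM at T0, 85.6 and 89.8 in erlotinib, and 106 in both osimertinib libraries. The 1.19-fold fall with erlotinib (adjusted p = 0.00644) was lost without T0 replicate 2 (adjusted p = 0.243) or erlotinib replicate 1 (adjusted p = 0.0548).

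The beta partners of alpha-v went different ways. ITGB5, a vitronectin receptor subunit, fell in PC9 from 327 and 331.8 CPM to 94.8 and 91.1 in erlotinib and 70.8 and 83.9 in osimertinib, falls of 3.55-fold and 4.27-fold (adjusted p = 1.67e-17 and 1.07e-18). In H1650, ITGB5 ranged from 161 to 187 CPM over all 6 libraries and did not pass the test with either drug (adjusted p = 0.18 and 0.796). ITGB8, whose receptor binds latent TGF-beta, rose in PC9 from 16.2 and 15.99 CPM to 24.0 and 29.2 in erlotinib and 39.0 and 42.0 in osimertinib (adjusted p = 2.13e-07 and 1.07e-12). In H1650, ITGB8 stood at 205 and 210.3 CPM at T0 and 189 and 190.0 in erlotinib (adjusted p = 0.189), and at 243 and 239 in osimertinib, a 1.16-fold rise (adjusted p = 0.0291) that was lost without any single library of the H1650 T0 or osimertinib groups (adjusted p between 0.0791 and 0.152).

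ITGB6, the epithelial beta subunit that also binds latent TGF-beta, differed between the drugs in both lines. It stood at 44.1 and 43.7 CPM in PC9 at T0, 19.0 and 21.1 in erlotinib, and 51.3 and 53.4 in osimertinib. In H1650 it stood at 32.0 and 33.5 CPM at T0, 14.2 in both erlotinib libraries, and 25.5 and 23.2 in osimertinib. Erlotinib libraries were the lowest in both lines. ITGB6 fell with erlotinib 2.19-fold in PC9 and 2.30-fold in H1650 (adjusted p = 3.79e-11 and 2.42e-10), and fell 1.35-fold with osimertinib in H1650 (adjusted p = 0.000673). In PC9 with osimertinib it was 1.19-fold higher than T0 (adjusted p = 0.0169, and 0.0648 by DESeq2), a call lost without either T0 library or osimertinib replicate 2 (adjusted p between 0.0757 and 0.1). Osimertinib against erlotinib, ITGB6 was 2.61-fold higher in PC9 (log2 difference 1.38, SE 0.0951, adjusted p = 1.08e-11) and 1.71-fold higher in H1650 (0.77, SE 0.104, adjusted p = 6.4e-06).

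The subunits known from blood cells were low in one line or both. ITGA4 stood at 271 and 283 CPM in H1650 at T0, 159 and 175 in erlotinib, and 227 and 223 in osimertinib, falls of 1.66-fold (adjusted p = 1.38e-08) and 1.23-fold (adjusted p = 0.00226). In PC9 it stood at 2.91 and 2.26 CPM in erlotinib and 4.25 and 3.92 in osimertinib, 3.53-fold and 5.63-fold above its T0 level (adjusted p = 4.11e-07 and 3.17e-10). Every treated PC9 library was higher than either T0 library, but all were under 5 CPM, against at least 159 in H1650. ITGB2, the common beta subunit of leukocyte integrins, rose in H1650 from 22.8 and 20.4 CPM to 34.1 and 29.5 in erlotinib and 38.7 and 30.8 in osimertinib (1.47-fold and 1.61-fold), and fell 1.66-fold with erlotinib in PC9, from 5.14 and 4.99 to 2.69 and 3.36. ITGAM, the alpha subunit of the myeloid receptor Mac-1, rose in PC9 from 3.28 and 4.39 CPM to 18.3 and 16.5 in osimertinib, a 4.53-fold rise (adjusted p = 1.44e-09). With erlotinib ITGAM reached 6.58 and 6.09 CPM (1.65-fold, adjusted p = 0.00783), a call lost without T0 replicate 1 (adjusted p = 0.116). In H1650 the ITGAM libraries held 0 to 4 reads each, so the call there with osimertinib (adjusted p = 0.0434) is not given as a fold. That call was lost without H1650 T0 replicate 2 or either osimertinib library (adjusted p between 0.14 and 0.152).

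PTPRC, the pan-leukocyte surface marker CD45, averaged at most 0.181 CPM in any group. The T cell marker CD3E averaged at most 0.0987 CPM, and the myeloid marker CD14 averaged at most 0.338 CPM in PC9. In H1650, CD14 averaged 2.09 CPM at T0, 2.01 in erlotinib and 3.58 in osimertinib (72 and 83 reads), where ITGB2 was also highest, and its part in the ITGB2 result was not tested. ITGAE, the alpha subunit that binds E-cadherin, fell 1.38-fold with osimertinib in PC9, from 31.3 and 30.6 CPM to 22.9 and 22.03, and 1.57-fold in H1650, from 20.6 and 22.3 to 12.5 and 14.8. Its 1.21-fold fall with erlotinib in PC9 (adjusted p = 0.0232) was lost without either T0 library or erlotinib replicate 2 (adjusted p between 0.0628 and 0.114), and in H1650 the difference was 1.16-fold (adjusted p = 0.135).

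The remaining 15 genes stayed under 10 CPM in every group, and 5 of them under 1 CPM in every library. Among them, ITGA9, which is related to ITGA4, had 0 reads in both PC9 T0 libraries, 7 and 3 in erlotinib (called higher, adjusted p = 0.00573), and 2 in each osimertinib library. In H1650 ITGA9 went from 25 and 26 reads at T0 to 56 and 61 in erlotinib and 81 and 62 in osimertinib (log2 fold changes 1.40 and 1.61, adjusted p = 0.00342 and 0.000857). ITGB7 rose in H1650 with both drugs, from 19 and 16 reads to 47 and 28, and 29 and 45 (adjusted p = 0.0218 and 0.0392). However, 1886 of its exonic bases are shared with ZNF740 on the other strand. The low-level genes were not followed one by one with a library left out. From the counts of higher genes in such fits, it is inferred that the ITGA9 and ITGB7 calls in H1650 did not all hold. Which of these calls was lost was not recorded. ITGB3 fell in H1650 with osimertinib, from 61 and 82 reads to 31 and 32 (adjusted p = 0.037), and shares 2266 exonic bases with AC068234.1. LAMC3 and LAMA2 were higher in H1650 than in PC9 at T0, by 3.95 and 1.80 on the log2 scale, and neither passed the test with a drug. ITGA8, which binds nephronectin, had at most 2 reads in any library.

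Counted over the 35 genes tested, erlotinib in PC9 was followed by 7 higher and 16 lower, or 65.7% called, where 61.8% of all genes were called. Osimertinib in PC9 gave 8 higher and 12 lower, or 57.1% against 61.4% of all genes. In H1650 either drug gave 5 higher and 13 lower, or 51.4%, against 36.5% of all genes with erlotinib and 35.7% with osimertinib. The 5 higher genes became 3 with erlotinib without H1650 T0 replicate 2, and 3 with osimertinib without either H1650 T0 library or osimertinib replicate 2. The shares called in PC9 were thus near those of all genes. Of the 23 genes with at least 10 CPM in a group, 95.7% and 87% were called in PC9. In H1650, 69.6% and 65.2% of the 23 were called, with erlotinib and osimertinib in that order. All genes were not matched with the 35 for level. By direction, genes called lower made up 29.1% and 28.7% of all genes in PC9 and 18.5% and 17.9% in H1650, with erlotinib and osimertinib in that order, and genes called higher 32.7% with either drug in PC9 and 18% and 17.8% in H1650. The median log2 fold change of the 35 genes was -0.27 and -0.17 in PC9 and -0.20 and -0.16 in H1650, where the medians of all genes were 0.07, 0.06, 0.01 and 0. In all 4 comparisons 6 of the 35, or 17.1%, were called lower, among them ITGA1, ITGA5, ITGB1, LAMA3 and LAMB3, where 9.16% of all genes were. LAMB2 was the counterpart in the other direction, 2.86% of the 35 against 8.47% of all genes. The comparisons within a line share their T0 libraries.

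**Figure D5:**
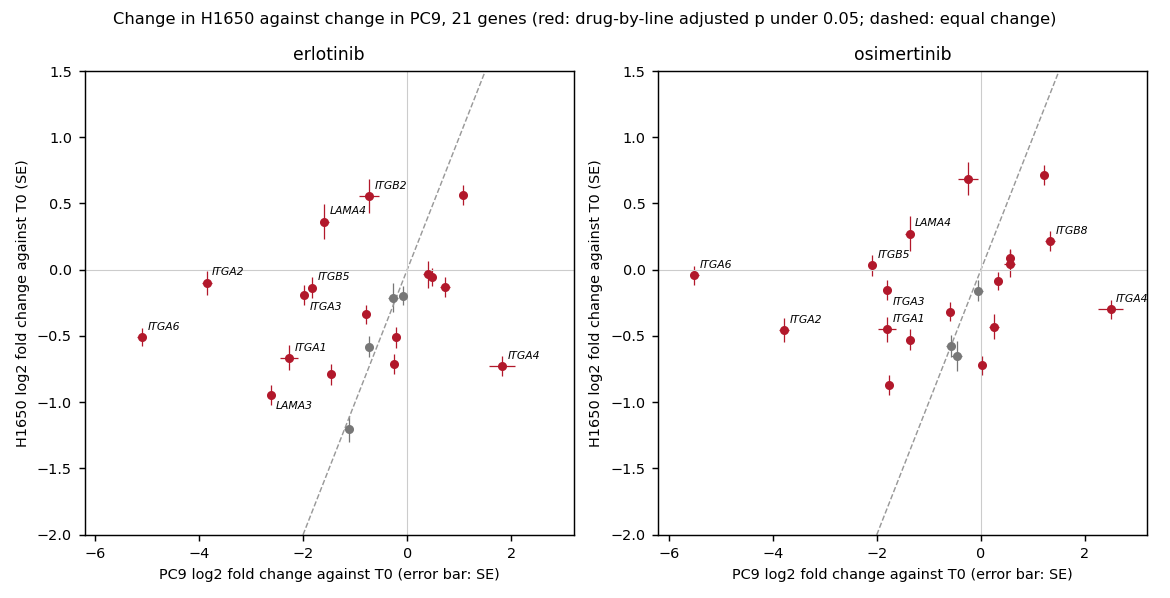
Log2 fold change against T0 in PC9 (horizontal axis) and H1650 (vertical axis, drawn over a narrower range) for 21 genes, with erlotinib at left and osimertinib at right. Error bars are SE, the dashed line marks equal change, red points differ between the lines by the drug-by-line test, and ITGAM is left out. ITGA6, ITGA2, ITGA3 and ITGB5 lie far left of the dashed line with H1650 values between -0.51 and 0.03.

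The change in H1650 was then set against the change in PC9 in the same model. The drug-by-line difference (H1650 minus PC9) was called for 18 of the 35 genes with erlotinib, 11 higher and 7 lower, or 51.4% against 40.8% of all genes (21.1% higher and 19.8% lower). With osimertinib it was called for 21, 11 higher and 10 lower, or 60% against 41.9% (21.5% higher and 20.5% lower). For 17 genes it was called the same way with both drugs. Leaving out ITGAM, which had at most 4 reads in any H1650 library, ITGA6 differed most, by 4.59 on the log2 scale with erlotinib (SE 0.106, adjusted p = 2.52e-22) and 5.47 with osimertinib (SE 0.109, adjusted p = 5.58e-24), followed by ITGA2 at 3.75 and 3.32. ITGA5 was the opposite case, with a difference of 0.15 for erlotinib (SE 0.116, adjusted p = 0.312) and less than 0.01 for osimertinib. Genes called in opposite directions in the lines were ITGA4, ITGB2 and LAMA4 with erlotinib, 8.57% of the 35 against 4.4% of all genes, and ITGA4, ITGB6 and ITGAM with osimertinib, 8.57% against 4.19%. Of these, ITGA4 alone went in opposite directions with both drugs. LAMA4 in H1650 with erlotinib, ITGB6 in PC9 and ITGAM in H1650 rest on the calls given above that were lost when 1 library was left out, so with osimertinib ITGA4 alone kept both calls.

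Osimertinib libraries were compared with erlotinib libraries at their respective doses. In PC9, 8 genes were higher and 2 lower in osimertinib, or 28.6% against 16.6% of all genes (10.1% higher and 6.41% lower). In H1650, 6 were higher and 2 lower, or 22.9% against 8.75% (5.02% higher and 3.73% lower). Libraries of the drugs did not overlap for 52% of all genes in PC9 and 48.7% in H1650. The 2 lower genes became 1 in PC9 without erlotinib replicate 1 or osimertinib replicate 1, and in H1650 they became 0 without erlotinib replicate 2 and 1 without any other erlotinib or osimertinib library. Besides ITGB6, LAMA3 was higher in PC9 with osimertinib than with erlotinib, 1.81-fold (adjusted p = 1.47e-09), while LAMB3 differed 1.07-fold (adjusted p = 0.451). ITGA6 differed in opposite directions, 1.33-fold lower with osimertinib in PC9 (adjusted p = 0.0008) and 1.38-fold higher in H1650 (adjusted p = 3.31e-05). ITGB8 was 1.52-fold higher with osimertinib in PC9 and 1.27-fold higher in H1650, and ITGAM 2.75-fold higher in PC9.

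The genes around the integrins, a list of adaptors, hemidesmosome parts, other matrix proteins and other laminin receptors, were counted in the same way. The list was chosen with earlier results of these data known, so its shares are not an independent comparison with all genes. All genes were not matched with the list for level either. Of 54 tested, 25 were higher and 22 lower with erlotinib in PC9, and 27 and 15 with osimertinib, or 87% and 77.8%, beside 61.8% and 61.4% of all genes. In H1650, 8 were higher and 31 lower with erlotinib, and 10 and 28 with osimertinib, or 72.2% and 70.4%, beside 36.5% and 35.7% of all genes. Kindlin-1 (FERMT1), which switches beta subunits to their active state in epithelia, fell in all 4 comparisons, with log2 fold changes of -3.39 (erlotinib) and -3.02 (osimertinib) in PC9 cells, and of -0.71 and -0.72 in H1650 cells. Tensin-4 (TNS4), which binds beta subunit tails, fell too, with -5.53 and -4.11 in PC9 cells, and -0.71 and -0.46 in H1650 cells. Tenascin-C (TNC), a matrix ligand of several integrins, gave -3.83 and -3.99 in PC9 cells, and -1.42 and -1.05 in H1650 cells, all past the test.

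Of 5 other laminin receptors, 3 rose and 2 fell in PC9 with each drug. In H1650, 1 rose and 3 fell with erlotinib, and 2 rose and 2 fell with osimertinib. Beside these counts and those of the hemidesmosome parts below, 32.7% of all genes were called higher in PC9 with either drug. Lower calls made up 29.1% and 28.7% there. In H1650, 18% and 17.8% were called higher and 18.5% and 17.9% lower. Both lists are short, and their counts were not tested against these shares. BCAM, a laminin alpha-5 receptor outside the integrin family, rose in both lines, the log2 fold changes being 1.70 and 1.47 for PC9 cells, then 1.69 and 1.38 for H1650 cells. The proteoglycan SDC1 fell in PC9 (-1.82 and -1.33). Nephronectin (NPNT), the ligand of the alpha-8 integrin, rose by 3.88 and 4.68 in PC9 cells, and by 0.67 and 0.95 in H1650 cells, while ITGA8 was at or near 0 reads. Of 4 hemidesmosome parts in PC9, 1 rose and 2 fell with erlotinib, and 2 rose and 2 fell with osimertinib, while in H1650 all 4 fell with erlotinib and 2 with osimertinib. COL17A1 fell with erlotinib (log2 fold change -1.56 in PC9 and -0.49 in H1650), and plectin (PLEC) fell in all 4 comparisons, with values between -0.29 and -0.39. Dystonin (DST), which ties the hemidesmosome to keratin filaments, rose in PC9 (0.70 and 0.96) and fell in H1650 (-0.58 and -0.32), and CD151, a tetraspanin partner of laminin-binding integrins, rose in PC9 with osimertinib (0.43). Fibronectin (FN1) rose in PC9, with log2 fold changes of 0.58 and 1.87, and fell in H1650, with -0.98 and -0.77. The adaptors FLNA, ZYX and CAV1, which link integrins to the actin skeleton or the membrane, fell in H1650, with log2 fold changes between -1.002 and -1.95, whereas in PC9 ZYX and CAV1 rose with both drugs.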

How the data were processed

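PolyA RNA of PC9 and H1650 cells was sequenced in 12 libraries of 6 groups. Cells were trypsinized and counted before RNA was extracted. The authors processed reads with the DolphinNext pipeline and featureCounts, and deposited whole-number counts per gene without normalization, together with a gene length that was used for levels per kb. The submitters' processing notes name the build GRCh38 and DESeq2. The aligner, annotation and strand setting are not given in the sources used here.

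All tests were run with edgeR 4.0.16 under R 4.3.3. Of the genes, 19108 passed filterByExpr with the group as design, and 41483 did not. TMM factors were 0.941 to 1.08. A quasi-likelihood model with 6 group terms was fitted to all 12 libraries (6 residual degrees of freedom, biological coefficient of variation 0.0656) for 9 contrasts, which set T0 against either drug within a line, the drugs against one another, the drug effects of the lines against each other, and the T0 cells of the lines against each other. SEs are the log2 fold change over the square root of F. The labels do not say how the replicates were made, and a legend of the study calls those of its RNA-seq biological. The p-values test group differences against the spread between these samples. The spread of each gene was drawn toward that of all genes, which weighed as 20.7 degrees of freedom beside the 6 residual ones. Replicates differed by more than counting noise, with a chi-square per degree of freedom of 3.66 to 6.50. Over the described genes, the coefficient of variation between replicates had a median of 3.93%.

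The genes, roles, motifs and the list of 56 adhesion genes (55 in the table, 54 tested) were chosen with earlier results of these data known. Genes with a mean of at least 10 CPM in at least 1 group were described by library, and others by counts. The values of 1 gene, which stays in every fit and count, are not reported here. The model was tested on simulated counts with known changes. Alternatives were DESeq2 1.42.0, RLE and upper-quartile scaling, no filter, at least 10 counts in every library, a replicate block, a fit per line, an adjusted p under 0.01, and each library left out. Positions are from GENCODE 29 and promoter windows from RefSeq (GRCh38.p14). Mitochondrial genes took 4.36% to 7.20% of counts.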

Additional observations from a re-analysis of the deposited data

Results flagged for a closer look

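For each gene below, the change in H1650 differed from the change in PC9 by a test of the difference itself (edgeR's quasi-likelihood test, adjusted p under 0.05). Values are the log2 fold change in H1650 minus that in PC9, first for erlotinib and then for osimertinib, and each rests on 8 libraries.

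Among laminin chains, the difference was positive for LAMA4 (1.96 and 1.64), LAMA3 (1.68 and 0.89) and LAMB3 (0.67 and 0.83). LAMA3 and LAMB3 fell more in PC9 than in H1650, and LAMA4 fell in PC9 but not in H1650. The difference was negative for LAMB1 (-0.53 and -0.47), LAMB2 (-0.51 and -0.49) and LAMA5 (-0.44 and -0.51). These rose in PC9, and by less or not at all in H1650. For LAMC1 it was negative with osimertinib (-0.42). The LAMA5 difference was lost with erlotinib without PC9 T0 replicate 2, PC9 erlotinib replicate 1, H1650 T0 replicate 1 or H1650 erlotinib replicate 2 (adjusted p between 0.0745 and 0.117), and with osimertinib without PC9 osimertinib replicate 1 (adjusted p = 0.0652). By DESeq2 the LAMA5 adjusted p was 0.15 and 0.0862.

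Among integrin subunits, the difference was positive for ITGA6 (4.59 and 5.47), ITGA2 (3.75 and 3.32), ITGA3 (1.79 and 1.65), ITGB5 (1.69 and 2.13), ITGA1 (1.61 and 1.35), ITGB2 (1.29 and 0.93) and ITGB1 (0.45 and 0.28). It was negative for ITGA4 (-2.55 and -2.79), ITGB8 (-0.86 and -1.12) and ITGAV (-0.46 and -0.75), for ITGB4 with erlotinib (-0.30), and for ITGB6 with osimertinib (-0.69). The ITGB4 difference was lost without either PC9 T0 library, PC9 erlotinib replicate 1, H1650 T0 replicate 1 or H1650 erlotinib replicate 2 (adjusted p between 0.0523 and 0.225), and that of ITGB1 with osimertinib without PC9 T0 replicate 2, PC9 osimertinib replicate 1, H1650 T0 replicate 1 or H1650 osimertinib replicate 2 (adjusted p between 0.0597 and 0.139).

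With osimertinib, ITGAM (-6.70) and ITGB3 (-2.50) were also past the test, but ITGAM had at most 4 reads in any H1650 library and ITGB3 at most 11 in any PC9 library, so these fitted values depend on how zero counts are handled and give no bound.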

How the results depend on the processing

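Of 207 results (23 genes by 9 comparisons), 151 passed the test, and 127 of these kept the call and direction under every alternative run. None of the 151 turned, and 24 lost the call in at least 1 alternative, 23 of them when a library was left out. The lone library left in such a fit is assumed to vary like the other groups. The replicate numbers are shared by all groups, and the labels name no common batch. The correlation of same-numbered deviations was over 0.1 in 12 of 15 pairs of groups (from -0.0195 to 0.454). Same-numbered libraries thus tended to deviate alike, which the main fit, having no replicate term, does not take into account. The 3 pairs under 0.1 each joined libraries of different lines, and within a line the correlations ran from 0.171 to 0.373. With the replicate block no call was lost and 7 were gained. These were ITGA3 (adjusted p = 0.0191) and ITGB4 (0.0223) in H1650 with osimertinib, ITGA6 between the lines at T0 (0.0456), and, for osimertinib against erlotinib, ITGB1 (0.00852), ITGA3 (0.0216) and ITGB4 (0.0289) in PC9 and ITGA1 (0.0246) in H1650. Upper-quartile scaling moved the median of all genes in PC9 with erlotinib from 0.07 to 0.17 on the log2 scale. Counts that moved by over 1.5 times were those higher in H1650 with erlotinib (5, with 3 by DESeq2 and 3 at an adjusted p under 0.01, and between 3 and 5 with a library left out), higher in H1650 with osimertinib (5, with 3 at 0.01, and between 3 and 5), lower in PC9 osimertinib against erlotinib (2, with 1 at 0.01, and between 1 and 2) and lower in H1650 osimertinib against erlotinib (2, with 0 at 0.01, and between 0 and 2). Results that turned were all under the threshold. With upper-quartile scaling they were ITGA5 for the osimertinib drug-by-line difference (-0.0514), ITGAE for the erlotinib one (-0.0182), ITGB4 in PC9 with osimertinib (0.0255) and LAMC1 in PC9 with erlotinib (0.0082). With at least 10 counts in every library they were ITGA5 for the osimertinib drug-by-line difference (-0.0246) and ITGB4 in PC9 with osimertinib (0.0011). Without a filter they were ITGAV in PC9 with osimertinib (-0.0594) and in H1650 osimertinib against erlotinib (0.0032), and with a fit per line ITGAV in PC9 with osimertinib (-0.0359) and ITGA5 in H1650 osimertinib against erlotinib (-0.00010). The cause of these turns was not tested.

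With each library left out in turn, the ranges of the results that turned were as follows. In H1650 with erlotinib they were -0.23 to 0.0179 for ITGA2, -4.51 to 0.54 for ITGAM and -0.18 to 0.0912 for LAMA5. In H1650 with osimertinib they were -0.0269 to 0.0937 for ITGB5 and -0.0620 to 0.16 for LAMA5. In PC9 with osimertinib, ITGAV ranged from -0.0921 to 0.14. For osimertinib against erlotinib in PC9 they were -0.0248 to 0.18 for ITGA2 and -0.0243 to 0.31 for LAMA5. For the same comparison in H1650 they were -0.0471 to 0.12 for ITGA3, -0.0375 to 0.0530 for ITGA5, -5.06 to 0 for ITGAM, -0.0657 to 0.0529 for ITGAV, -0.0676 to 0.12 for ITGB1, -0.0395 to 0.29 for ITGB2, -0.25 to 0.0981 for LAMA4 and -0.0438 to 0.22 for LAMA5. For the drug-by-line difference they were -0.0523 to 0.0798 for ITGA5 and -0.22 to 0.0178 for ITGB4 with osimertinib, and -0.15 to 0.0030 for ITGB6 with erlotinib.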
